A study of Homo sapiens with 6 samples.

Results

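A set of 36 genes of the G1/S transition and DNA replication was examined in A549 cells, a human lung adenocarcinoma line, after knockdown of GSE1. The members were taken by gene symbol from 60612 genes in the deposited table, and each symbol matched exactly 1 gene. The siGSE1 group held 3 libraries from cells transfected with an siRNA against GSE1, and the control group held 3 libraries from cells transfected with a negative control siRNA. All cells were harvested 48 hours after transfection, and no other genotype or agent is given. Every library came from this single line. Neither the siRNA sequences nor the number of siRNAs against GSE1 is stated. The libraries are numbered 1 to 3 in each group, with no word on whether they came from separate cultures, so p-values measure only the spread among these 6 libraries, which may be technical.

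Before S phase, the origin recognition complex with CDC6 and CDT1 loads the ring of MCM2 to MCM7 onto DNA at replication origins. Cyclin E with its kinase CDK2 and the kinase CDC7 then start the forks, as CDC45 and the GINS complex join the ring to form the active helicase. Many of these genes, and those of nucleotide supply and chromatin assembly, are transcribed together near the G1/S boundary by E2F factors, and they are widely used as signs of cycling in tumor cells. In bulk RNA, fewer cells in S phase and less RNA per cell cannot be told apart.

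A letter search of the promoters shows what many of the members share beyond their symbols. RefSeq promoters (build GRCh38.p14, 250 bases before to 50 after the gene start) were found for 32 of the 36 members. The E2F element was searched as TTTCCCGC, TTTGGCGC, TTTCGCGC and TTTGCCGC on both strands. It occurred in 19 of the 32 member promoters, 59.4%, against 3.33% of all 27305 promoters of that length. Among the members described below, it was found in 6 of 9 that were higher in siGSE1 cells, in 1 of 2 that were lower and in 12 of 21 that did not pass the test. These shares rest on few promoters and were not tested. A CCAAT box, searched as CCAAT on both strands, was found in 18 of the 32 promoters, 56.3%, against 35.7% of all promoters. The cell cycle homology region, a mitotic promoter element searched as TTTGAA on both strands, was found in 1 of 32, against 15.4% of all promoters. A match of letters is a description and not a shown binding site.

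The lines below show 30 bases around the element in the promoters of members that were higher, of E2F2, which was lower, and of PCNA, whose groups overlapped. They are shown because forms of the same element lay near the start of genes with different outcomes. Each is written 5′ to 3′ on the strand of its gene, with the element or its reverse complement in capitals.
E2F1, chr20:33686387-33686416, minus strand: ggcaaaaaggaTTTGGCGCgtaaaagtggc
UHRF1, chr19:4909476-4909505, plus strand: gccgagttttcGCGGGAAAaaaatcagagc
CDC6, chr17:40287875-40287904, plus strand: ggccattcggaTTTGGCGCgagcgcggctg
GINS2, chr16:85688967-85688996, minus strand: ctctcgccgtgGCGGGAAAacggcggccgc
POLE, chr12:132687342-132687371, minus strand: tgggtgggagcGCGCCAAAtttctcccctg
TYMS, chr18:657603-657632, plus strand: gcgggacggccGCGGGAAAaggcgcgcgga
E2F2, chr1:23531257-23531286, minus strand: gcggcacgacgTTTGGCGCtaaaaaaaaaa
PCNA, chr20:5126663-5126692, minus strand: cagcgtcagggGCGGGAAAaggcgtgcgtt
The first base of the element lay 20 bases before the start in E2F1, 14 in UHRF1, 31 in GINS2, 18 in POLE, 39 in TYMS, 42 in E2F2 and 59 in PCNA. In CDC6 it was base 8 of the transcript. E2F1 held another match, 33 bases before its start. These starts are those of the RefSeq promoter table, and can differ from the gene bounds of the deposited table, within which the elements of GINS2, UHRF1, POLE and CDC6 lie.

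Library totals ran from 17521807 to 19914346 counts in siGSE1 cells and from 14475992 to 20755506 counts in control cells. Control replicate 2 stood apart from its group, since chi-square over degrees of freedom, computed on gene counts, was 9.2 and 8.23 when it was set against its group. Among the siGSE1 libraries the same measure was 2.44 to 3.17, and between control replicates 1 and 3 it was 4.34. GSE1 fell to 3.84, 4.06 and 3.73 FPKM (reads scaled to exonic length and library total) in siGSE1 cells, against 7.37, 8.06 and 7.92 in control cells. Its log2 fold change was -1.03 (SE 0.06, edgeR adjusted p = 2.14e-08). The epithelial keratin genes KRT8 and KRT18 were abundant in all libraries, at 632 FPKM or more, and both fell, with log2 fold changes of -0.26 and -0.25 (edgeR adjusted p = 0.0173 and 0.0317). The other epithelial markers examined, KRT19, CDH1 and EPCAM, did not pass, and the epithelial adhesion gene EPCAM did not exceed 1.14 FPKM in any. The leukocyte, fibroblast and endothelial markers examined stayed below 2 FPKM except CD14, which had 3.14 to 4.85 FPKM in siGSE1 cells and 3.31 to 5.67 in control cells.

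The 36 members did not move as a block. All 36 passed the filter on low counts, and 10 rose, 3 fell and 23 did not pass the test (edgeR quasi-likelihood test, Benjamini-Hochberg adjusted p under 0.05 over 15937 genes). The 10 that rose were GINS2, CDC45, CHAF1A, E2F1, GINS4, POLD1, UHRF1, TYMS, POLE and CDC6, and the 3 that fell were CCNE1, E2F2 and MCM4. Of all genes tested 19.9% were called, 10.9% as higher and 9.02% as lower, so that 54.6% of the called genes were higher. Under TPM scaling 73.3% of them were higher, and 1 member in place of 3 fell, where 5.83% of all genes tested were lower. The members' shares were 36.1% called, 27.8% higher and 8.33% lower, so the share of members lower was near the background. The median log2 fold change was 0.03 over the members and 0.00 over all genes tested. Every change was small, with fitted log2 fold changes from -0.51 to 0.43.

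**Figure D1:**
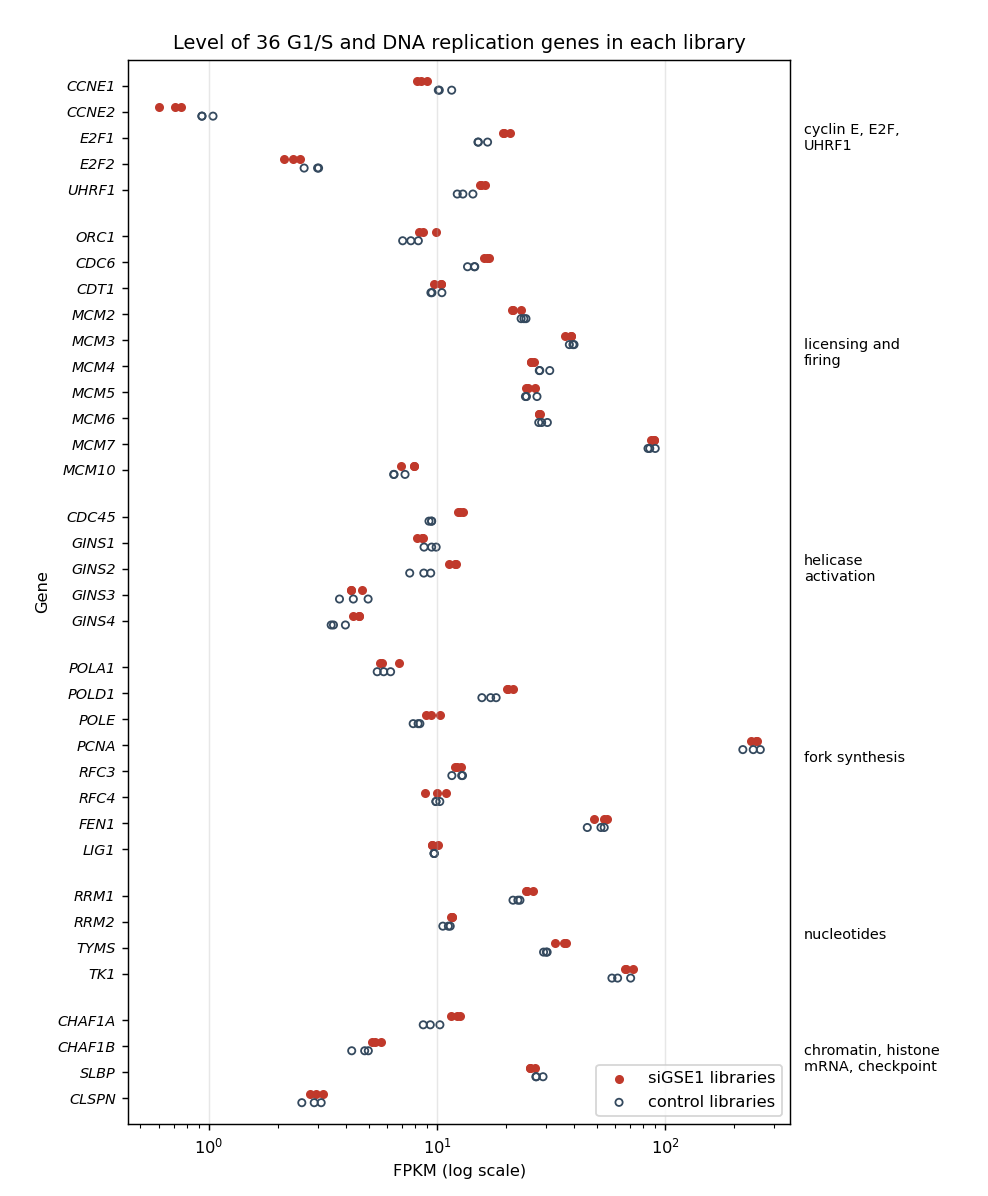
FPKM on a log scale (horizontal) of each of the 36 genes (rows, grouped by role) in 3 siGSE1 libraries (filled points) and 3 control libraries (open points). Levels ran from under 1 FPKM for CCNE2 to about 250 for PCNA, and the filled and open points separated for CDC45 and E2F1 but overlapped for PCNA and MCM7.

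The members spanned more than 2 orders of magnitude in level. PCNA was the most abundant, at 247 ± 7.51 FPKM in siGSE1 cells and 241 ± 21.2 in control cells (SD, n = 3 each), and CCNE2 the least, at 0.69 ± 0.08 and 0.97 ± 0.06. Between them, MCM7 had 88.5 ± 1.3 FPKM in siGSE1 cells and 86.7 ± 3.32 in control cells, and TK1 68.7 ± 2.84 and 63.6 ± 6.26. Together the members took 0.304% to 0.318% of all counts in siGSE1 libraries and 0.285% to 0.309% in control libraries. The 3 siGSE1 values lay beyond all 3 control values in 21 of the 36 members, or 58.3%, where 36.1% of all genes tested did so.

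Libraries of the control group differed among themselves along the list. Relative to the control mean, the median member stood at 0.04, 0.01 and 0.06 on the log2 scale in siGSE1 replicates 1, 2 and 3. In control replicates 1, 2 and 3 it stood at 0.07, 0.00 and -0.07. The median of the list thus ranged more widely within the control group than between the groups. Control replicate 3, the shallowest library, was the lowest of the 3 control libraries for many members, GINS2, PCNA, FEN1 and CHAF1A among them. Without it, 5 members rose and 4 fell, where 8.96% of all genes tested were higher and 8.65% lower.

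**Figure D2:**
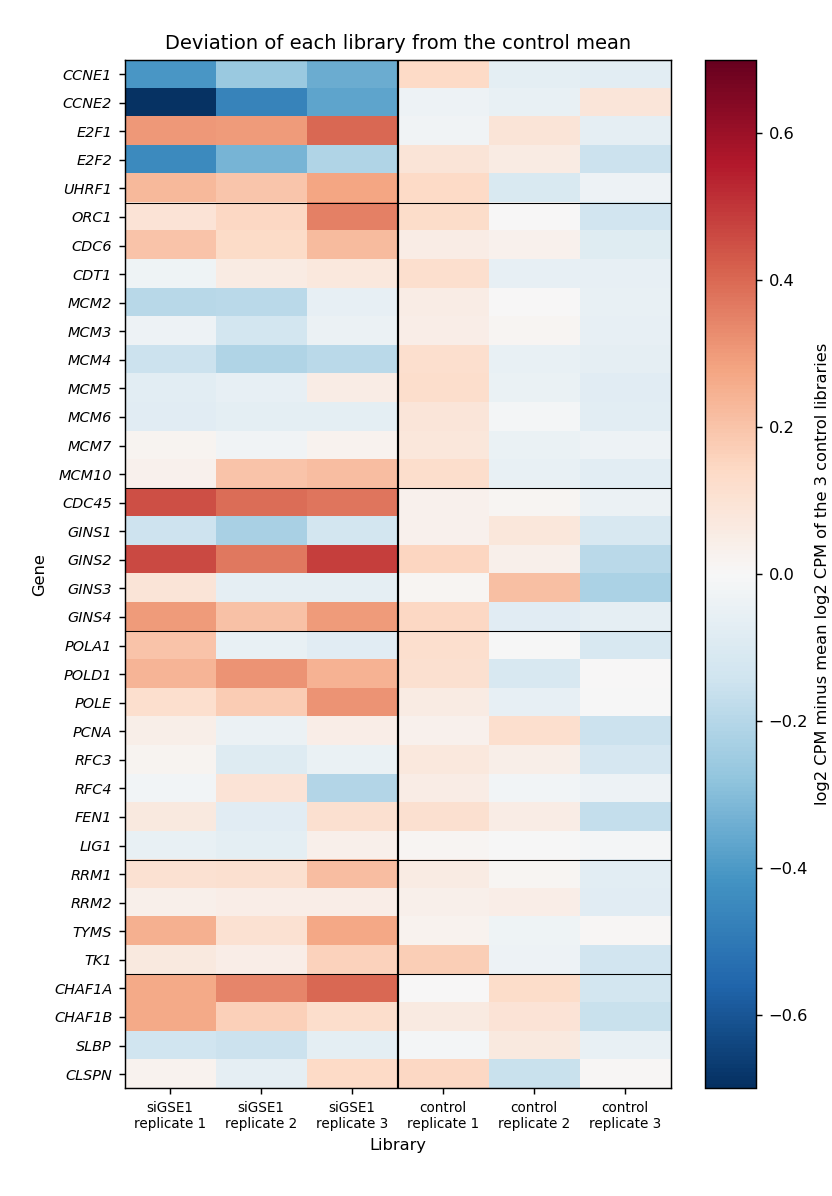
Difference of log2 CPM from the mean of the 3 control libraries (colour, red higher and blue lower) for each of the 36 genes (rows, lines between roles) in each library (columns). CDC45, GINS2, E2F1 and CHAF1A were red in all 3 siGSE1 libraries, CCNE1, CCNE2 and E2F2 were blue in all 3, and the rows of MCM2 to MCM7 were pale.

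Of the 5 genes in the group of E cyclins, E2F factors and UHRF1, E2F1 and UHRF1 rose, CCNE1 and E2F2 fell, and CCNE2 did not pass. The shares over all genes tested were 10.9% higher and 9.02% lower. CCNE1, which encodes cyclin E1, the activating partner of CDK2, had 8.12, 9.04 and 8.47 FPKM in siGSE1 cells, against 11.6, 10.1 and 10.2 in control cells. It was below every control value in all siGSE1 libraries and fell by 0.34 on the log2 scale (SE 0.09, edgeR adjusted p = 0.0122). CCNE2, which encodes the related cyclin E2, had 0.60, 0.71 and 0.75 FPKM in siGSE1 cells, against 0.93, 0.93 and 1.04 in control cells. The groups did not overlap, but the log2 fold change of -0.51 had an SE of 0.20 and did not pass (edgeR adjusted p = 0.0836). CCNE2 passed with limma on quantile-normalized log2(FPKM + 1), where its log2 fold change was -0.24 (limma adjusted p = 0.0436). That setting changed the tool and the scale as well as the normalization. Its counts were only 46 to 66 in siGSE1 libraries and 66 to 85 in control libraries. In GENCODE release 29, 37.0% of the CCNE2 exonic bases overlap exons of INTS8 on the opposite strand, which was itself lower in siGSE1 cells (log2 fold change -0.24, edgeR adjusted p = 0.0192), and the part of those reads in the CCNE2 counts was not tested.

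E2F1, an activating E2F that switches on replication genes, had 19.5, 19.6 and 20.9 FPKM in siGSE1 cells, against 15.2, 16.6 and 15.1 in control cells. All siGSE1 libraries lay above all control libraries, and E2F1 rose 1.26-fold (log2 fold change 0.33, SE 0.07, edgeR adjusted p = 0.00259). E2F2, another activating member of the same family, had 2.13, 2.33 and 2.51 FPKM in siGSE1 cells, against 3.02, 2.99 and 2.61 in control cells. The groups were separate by a narrow margin, and E2F2 fell by 0.33 on the log2 scale (SE 0.11, edgeR adjusted p = 0.0420). By level E2F1 was the main activating E2F of the pair, at 20.0 ± 0.79 FPKM in siGSE1 cells and 15.6 ± 0.87 in control cells, against 2.32 ± 0.19 and 2.87 ± 0.23 for E2F2 (SD, n = 3 each). UHRF1, which reads hemimethylated DNA behind the fork and recruits the maintenance methyltransferase, had 15.6, 15.4 and 16.2 FPKM in siGSE1 cells, against 14.4, 12.3 and 13 in control cells. It rose 1.17-fold (log2 fold change 0.23, SE 0.07, edgeR adjusted p = 0.0229). The E2F2 call was lost in 12 of 17 alternative settings, that of UHRF1 in 5 and that of CCNE1 in 3, while E2F1 passed in all 17. CCNE1 lost its call without siGSE1 replicate 1, siGSE1 replicate 3 or control replicate 1 (edgeR adjusted p up to 0.0652).

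**Figure D3:**
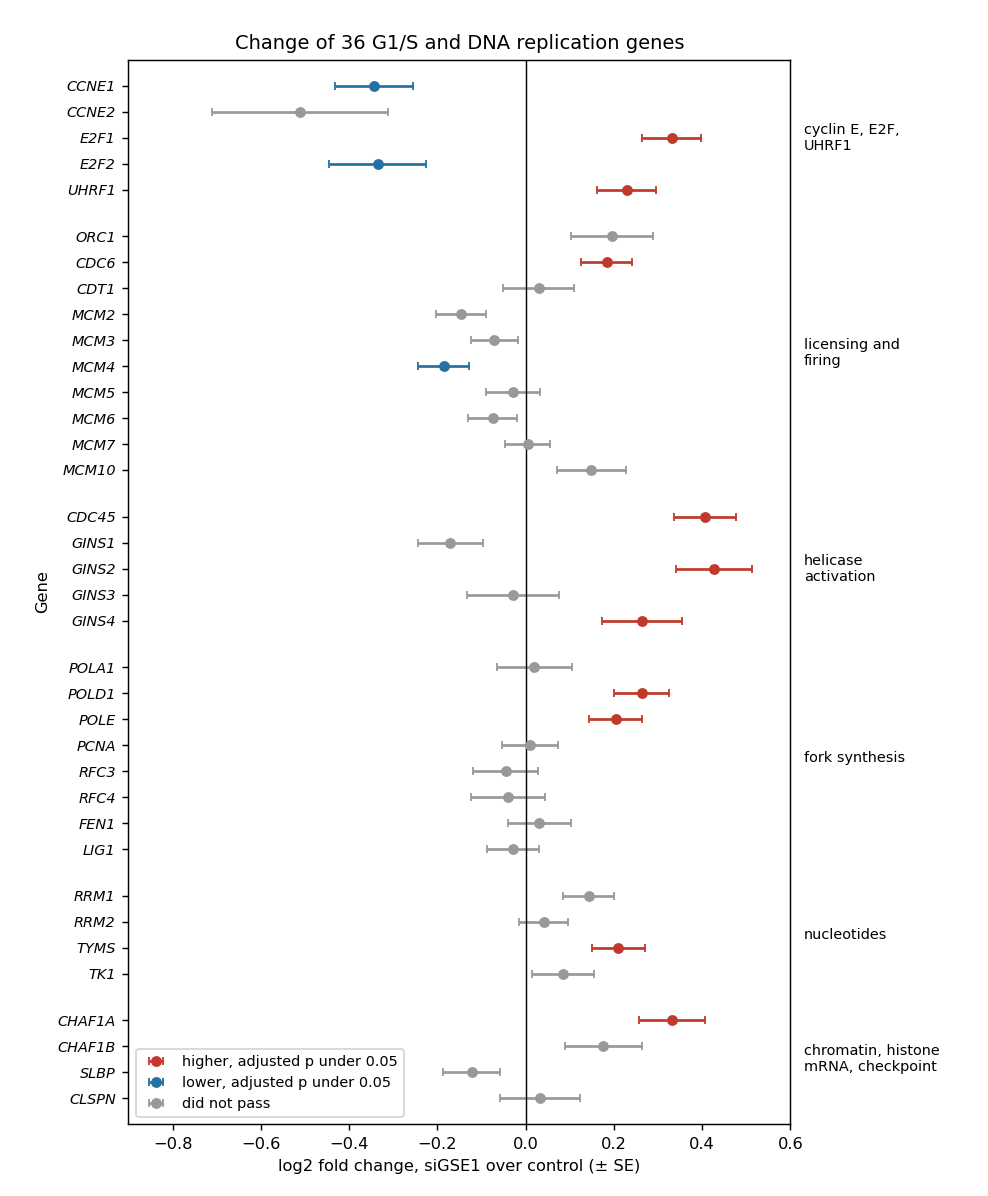
Fitted log2 fold change of siGSE1 over control (horizontal, bars ± SE) of the 36 genes by role, with red for genes that were higher, blue for genes that were lower and grey for those that did not pass. The largest called increases were GINS2 at 0.43 and CDC45 at 0.41, and MCM2 to MCM7 lay between -0.19 and 0.01.

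The 10 genes of origin licensing and firing were mixed, as 1 rose, 1 fell and 8 did not pass. These counts were near the shares over all genes tested, 10.9% higher and 9.02% lower. CDC6, the ATPase that loads MCM rings with CDT1, had 16.6, 16 and 16.9 FPKM in siGSE1 cells, against 14.6, 14.6 and 13.6 in control cells. Each siGSE1 value lay above each control value, and CDC6 rose 1.14-fold (log2 fold change 0.18, SE 0.06, edgeR adjusted p = 0.0371). MCM4, a subunit of the helicase ring, had 26.6, 25.7 and 25.9 FPKM in siGSE1 cells, against 31.2, 28.1 and 28.2 in control cells. It fell by 12.1% (log2 fold change -0.19, SE 0.06, edgeR adjusted p = 0.0305). The CDC6 call was lost in 7 of the 17 alternatives and that of MCM4 in 8.

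The other subunits of the ring did not pass the test. MCM7, the most abundant of them, had 89.1, 87.1 and 89.4 FPKM in siGSE1 cells, against 90.4, 84.1 and 85.6 in control cells, so the groups overlapped. Its log2 fold change of 0.01 had an SE of 0.05 (edgeR adjusted p = 0.960). MCM2 lay lower in all siGSE1 libraries, with a log2 change of -0.15 (SE 0.06, edgeR adjusted p = 0.0844), and passed in 1 of 17 alternatives, with GC and length trends removed (edgeR adjusted p = 0.0446). MCM3, MCM5 and MCM6 had log2 fold changes of -0.07, -0.03 and -0.07. Summed over the 6 subunits, the ring genes reached 224 to 232 FPKM in siGSE1 libraries and 227 to 244 in control libraries. In siGSE1 cells the subunits other than MCM7 had means between 22 FPKM for MCM2 and 37.9 for MCM3. MCM7 thus had more than 2 times the FPKM of any other ring subunit, in siGSE1 and control cells alike. Of the loading factors, CDT1 had overlapping groups and a log2 fold change of 0.03 (SE 0.08). ORC1, the ATPase subunit of the origin recognition complex, had a log2 change of 0.20 (SE 0.09, edgeR adjusted p = 0.159). Its groups were separate in FPKM by a narrow margin, 8.3 in siGSE1 replicate 1 against 8.27 in control replicate 1. In log2 CPM with TMM they overlapped, as these libraries stood at 0.10 and 0.13 relative to the control mean. MCM10, which acts at the step from loaded ring to moving fork, had 0.15 (SE 0.08, edgeR adjusted p = 0.201) with overlapping groups.

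Helicase activation held the largest called changes of the list, where 3 of 5 genes rose and 0 fell. Since 10.9% of all genes tested were higher and 9.02% lower, 0 lower among 5 genes was near the background. At an unadjusted edgeR p under 0.05, 1 was lower, and DESeq2 called 2 higher and 0 lower. CDC45, the recruitment of which turns the MCM ring into a working helicase, had 13, 12.6 and 12.4 FPKM in siGSE1 cells, against 9.46, 9.45 and 9.21 in control cells. The libraries within each group were close and the groups far apart, and CDC45 rose 1.33-fold (log2 fold change 0.41, SE 0.07, edgeR adjusted p = 7.42e-04). GINS2 had 11.9, 11.3 and 12.1 FPKM in siGSE1 cells, against 9.37, 8.74 and 7.58 in control cells. All siGSE1 libraries were above all control libraries, and GINS2 rose 1.34-fold (log2 fold change 0.43, SE 0.09, edgeR adjusted p = 0.00229). GINS4 had 4.53, 4.28 and 4.54 FPKM in siGSE1 cells, against 3.96, 3.43 and 3.51 in control cells. Its log2 fold change of 0.26 (SE 0.09) passed at an edgeR adjusted p of 0.0495, just inside the threshold, and the call was lost in 13 of 17 alternatives.

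The GINS complex holds its subunits in equal number, and their transcripts did not move together. GINS1 had 8.6, 8.18 and 8.71 FPKM in siGSE1 cells, against 9.46, 9.90 and 8.76 in control cells, all lower in siGSE1 cells but with a log2 fold change of -0.17 that did not pass (SE 0.07, edgeR adjusted p = 0.116). Without control replicate 3, GINS1 passed (edgeR adjusted p = 0.0471). GINS3 had overlapping groups, with 4.18 to 4.66 FPKM in siGSE1 cells and 3.73 to 4.98 in control cells. CDC45 and the GINS genes together summed to 40.5 to 42.8 FPKM in siGSE1 libraries and 32.8 to 36.5 in control libraries, ranges that did not overlap, whereas those of the ring genes did. The difference between these sums was not tested.

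GINS2 is also the genomic neighbour of the gene that was knocked down. In the deposited coordinates (hg38), GINS2 (ENSG00000131153) spans 85676198 to 85690073 on the minus strand of chromosome 16. GSE1 (ENSG00000131149) spans 85169525 to 85676204 on the plus strand of the same chromosome, so the 3' ends of the genes meet. In GENCODE release 29 their exons share 7 bases, 0.214% of the GINS2 exonic length. The neighbours moved in opposite directions, GINS2 higher by 0.43 and GSE1 lower by 1.03 on the log2 scale, and any relation between these changes was not tested.

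Of the 8 genes of DNA synthesis at the fork, 2 rose and 0 fell, and the 2 that rose encode catalytic subunits of the replicative polymerases. Where 10.9% of all genes tested were higher and 9.02% lower, 0 lower among 8 genes was near the background. DESeq2 gave the same counts, and 0 were lower at an unadjusted edgeR p under 0.05. POLD1, the catalytic subunit of polymerase delta, had 20.3, 21.6 and 20.4 FPKM in siGSE1 cells, against 18.1, 15.7 and 17.2 in control cells. It rose 1.2-fold, with no overlap between groups (log2 fold change 0.26, SE 0.06, edgeR adjusted p = 0.00734). POLE, the catalytic subunit of polymerase epsilon, had 8.98, 9.43 and 10.3 FPKM in siGSE1 cells, against 8.40, 7.85 and 8.25 in control cells. It rose 1.15-fold (log2 fold change 0.20, SE 0.06, edgeR adjusted p = 0.0244), and its call was lost in 7 of 17 alternatives. POLA1, the catalytic subunit of polymerase alpha, which extends the primers, overlapped between groups (log2 fold change 0.02, SE 0.09).

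The clamp, its loader and the enzymes that finish Okazaki fragments did not pass. PCNA, the sliding clamp, had 251, 239 and 252 FPKM in siGSE1 cells, against 243, 261 and 219 in control cells. The control libraries enclosed the siGSE1 values, and the log2 fold change of 0.01 had an SE of 0.06 (edgeR adjusted p = 0.940). The clamp loader subunits RFC3 and RFC4 had log2 fold changes of -0.05 (SE 0.07) and -0.04 (SE 0.08). FEN1, the flap endonuclease, had 0.03 (SE 0.07), and LIG1, the ligase that seals the fragments, had -0.03 (SE 0.06). Groups overlapped for all 5 of these genes. Copies with pseudogene names took few reads, at most 0.0513% of the counts of the parent gene, for RRM2.

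Among the 4 genes of nucleotide synthesis, 1 rose and 0 fell, by edgeR and by DESeq2. With 10.9% of all genes tested higher and 9.02% lower by edgeR, counts from 4 genes do not set the group apart. At an unadjusted edgeR p under 0.05, 2 were higher and 0 lower. TYMS, the thymidylate synthase that is the target of fluoropyrimidine drugs, had 36.1, 32.9 and 36.6 FPKM in siGSE1 cells, against 30.1, 29.3 and 30.4 in control cells. All siGSE1 values were higher, and TYMS rose 1.16-fold (log2 fold change 0.21, SE 0.06, edgeR adjusted p = 0.0213). Its call was lost in 3 of 17 alternatives, without siGSE1 replicate 1, siGSE1 replicate 3 or control replicate 3 (edgeR adjusted p up to 0.111). ENOSF1 on the opposite strand shares 39.1% of the TYMS exonic bases, but had at most 4.4 FPKM, against at least 29.3 for TYMS, and did not pass the test (log2 fold change -0.07, edgeR adjusted p = 0.579). TK1, the salvage enzyme that phosphorylates thymidine, had 67.4, 66.8 and 72.0 FPKM in siGSE1 cells, against 70.6, 61.9 and 58.4 in control cells. These groups overlapped (log2 fold change 0.08, SE 0.07, edgeR adjusted p = 0.444). The ribonucleotide reductase subunits did not pass either, with log2 fold changes of 0.14 for the large subunit RRM1 (SE 0.06, edgeR adjusted p = 0.0931) and 0.04 for the small subunit RRM2 (SE 0.05, edgeR adjusted p = 0.658). Under TPM scaling and with library totals alone, RRM1 passed, at edgeR adjusted p-values of 0.0146 and 0.0420.

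For chromatin assembly, histone mRNA and the fork checkpoint, 1 of 4 genes rose and 0 fell, by edgeR and by DESeq2. As 10.9% of all genes tested were higher and 9.02% lower by edgeR, counts from 4 genes do not set this group apart. At an unadjusted edgeR p under 0.05, 1 was higher and 0 lower. CHAF1A, the large subunit of the factor that deposits histones behind the fork, had 11.5, 12.2 and 12.6 FPKM in siGSE1 cells, against 9.33, 10.3 and 8.69 in control cells. Groups did not overlap, and CHAF1A rose 1.26-fold (log2 fold change 0.33, SE 0.07, edgeR adjusted p = 0.00487). CHAF1B, its partner subunit, was higher in all siGSE1 libraries but did not pass (log2 fold change 0.18, SE 0.09, edgeR adjusted p = 0.177). SLBP, which binds the stem-loop of replication histone mRNA, had 25.6, 25.6 and 26.9 FPKM in siGSE1 cells, against 27.2, 29.1 and 27.1 in control cells. All siGSE1 values were lower, yet the log2 fold change of -0.12 did not pass (SE 0.06, edgeR adjusted p = 0.199). CLSPN, the adaptor that carries the fork checkpoint signal to CHEK1, overlapped between groups (log2 fold change 0.03, SE 0.09).

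**Figure D4:**
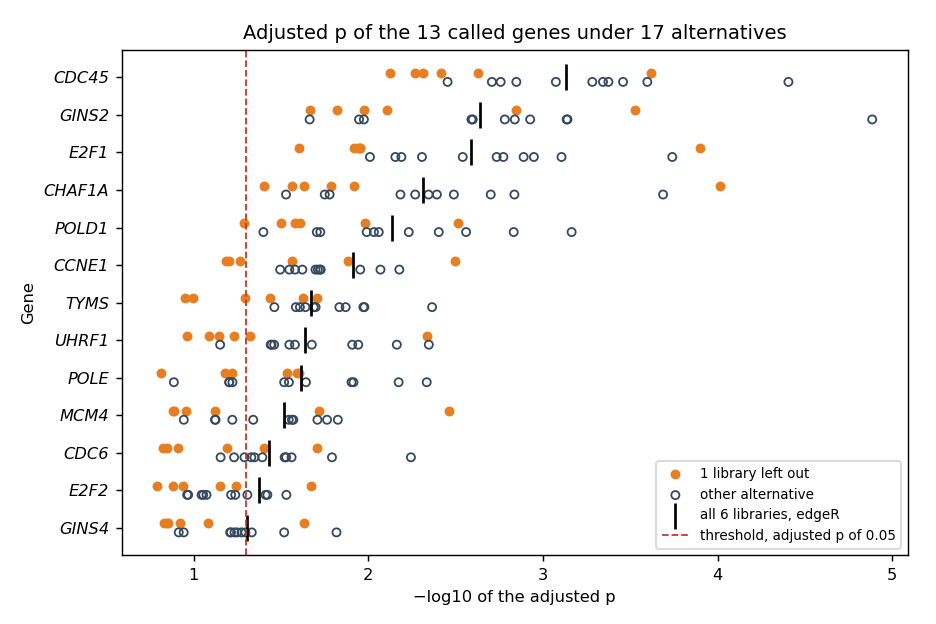
Negative log10 of the adjusted p (horizontal) for the 13 called genes (rows) with all 6 libraries (black ticks), with 1 library left out (filled points) and under the other alternatives (open points), with the threshold as a dashed line. CDC45, GINS2, E2F1 and CHAF1A stayed to the right of the line throughout, and GINS4 and E2F2 lay on or left of it in most settings.

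Of the 13 called members, 4 stayed past the threshold in all 17 alternatives, namely CDC45, GINS2, E2F1 and CHAF1A, and none of the 13 changed direction in any. POLD1 lost its call in 1, without siGSE1 replicate 2 (edgeR adjusted p = 0.0516). Without control replicate 2, the library that stood apart, 9 members rose and 2 fell, GINS4 and E2F2 having lost their calls. In that fit 11.8% of all genes tested were higher and 10.1% lower. Without control replicate 1, 10 members rose and 0 fell, where 9.14% of all genes tested were higher and 7.28% lower. Without siGSE1 replicate 1, 6 members rose and 0 fell, where these shares were 7.29% and 5.90%. Without siGSE1 replicate 2, 5 rose and 1 fell, where they were 7.09% and 5.49%. Without siGSE1 replicate 3, 5 rose and 0 fell, where they were 6.43% and 4.99%. At such shares, 0 lower among 36 members does not set the list apart. At the study's stricter limits (adjusted p at most 0.001 and, here, absolute log2 fold change at least 0.5), 2.55% of all genes tested were called by edgeR, and 0 members, where 17 members had an unadjusted p under 0.05 and DESeq2 called 10 at an adjusted p under 0.05. Of 30620 genes with a count, DESeq2 called 4.55% higher and 4.10% lower. This total includes genes that the filter on low counts removed, and genes without an adjusted p count as not called. All 36 members passed that filter, so these DESeq2 shares are not a like background for them. The share of all genes with an unadjusted edgeR p under 0.05 is not given here. Of the 23 other members, 12 changed sign in at least 1 alternative, and a p that missed the threshold does not show that a gene was unchanged.

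Other genes of the same pathway, 74 in all and listed by role, held similar numbers in each direction with TMM scaling. TPM scaling called 14 higher and 6 lower, but with that scaling 73.3% of all called genes were higher. The imbalance under TPM scaling was thus not particular to this list. With TMM, 7 rose, 8 fell and 59 did not pass, 20.3% called against 19.9% of all genes tested, with a median log2 fold change of 0.01. Of 9 licensing genes, 0 rose and 2 fell, where 10.9% of all genes tested were higher and 9.02% lower. At an unadjusted edgeR p under 0.05, 1 was higher and 4 lower, and DESeq2 called 0 higher and 1 lower. GMNN encodes geminin, which binds CDT1 and blocks relicensing, and had 7.79, 7.63 and 8.46 FPKM in siGSE1 cells, against 10.7, 11.7 and 11.4 in control cells. It fell by 30.6%, well below every control library (log2 fold change -0.53, SE 0.08, edgeR adjusted p = 3.42e-04), while CDT1 itself did not pass. MCM9, a helicase paralog, fell at the edge of the threshold (log2 fold change -0.36, edgeR adjusted p = 0.0498), with groups that overlapped at the tie of 1.08 FPKM.

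Firing factors held 2 that rose and 1 that fell of 8, where 10.9% of all genes tested were higher and 9.02% lower. TICRR, also called treslin, which brings CDC45 to the ring, had 6.4, 6.14 and 6.00 FPKM in siGSE1 cells, against 4.68, 4.45 and 4.53 in control cells. It rose 1.33-fold, like CDC45 (log2 fold change 0.41, SE 0.07, edgeR adjusted p = 3.15e-04). The RecQ helicase gene RECQL4 rose 1.23-fold (edgeR adjusted p = 0.0118), and WDHD1, which links the helicase to polymerase alpha, fell by 20.2% (edgeR adjusted p = 0.0085). Of the 21 further fork genes, 1 rose and 1 fell, or 4.76% each, below the shares over all genes tested. POLE3, a small histone-fold subunit of polymerase epsilon, had 23.8, 25.6 and 22.8 FPKM in siGSE1 cells, against 34.9, 33.8 and 35.0 in control cells. It fell by 31.5% (log2 fold change -0.55, SE 0.06, edgeR adjusted p = 1.11e-05), opposite to the catalytic subunit POLE. RNASEH2C, a subunit of ribonuclease H2, rose 1.21-fold (edgeR adjusted p = 0.0114).

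In nucleotide supply 1 rose and 1 fell of 8, near the 10.9% higher and 9.02% lower of all genes tested. DUT, which removes dUTP, rose 1.26-fold (edgeR adjusted p = 0.00260), and RRM2B, the p53-inducible small subunit of ribonucleotide reductase, fell by 12.7% (edgeR adjusted p = 0.0325). Of the 5 further chromatin genes, 0 passed by edgeR or DESeq2, and 1 had an unadjusted edgeR p under 0.05. This was HELLS, a chromatin remodeler named here after its value was seen (log2 fold change -0.22). The most abundant of the 5, the maintenance methyltransferase gene DNMT1, had a log2 fold change of 0.01 (SE 0.06). Among checkpoint and turnover genes, DTL, the adaptor for destruction of CDT1 in S phase, rose 1.21-fold (edgeR adjusted p = 0.0125). WEE1, the inhibitory kinase of CDK1 and CDK2, fell by 20.2% (edgeR adjusted p = 0.0170).

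Regulators of E2F and CDK2 held 2 that rose and 2 that fell of 16, near the 10.9% higher and 9.02% lower of all genes tested. CDKN1A, which encodes the CDK2 inhibitor p21, had 55.7, 56.8 and 59.3 FPKM in siGSE1 cells, against 92.4, 76.2 and 89.4 in control cells. It fell by 34.5% (log2 fold change -0.61, SE 0.07, edgeR adjusted p = 1.19e-05), far below every control library. TFDP1, the DNA-binding partner of the E2F proteins, had 30.2, 30.4 and 31.8 FPKM in siGSE1 cells, against 22.7, 24.5 and 23.2 in control cells, and rose 1.29-fold (edgeR adjusted p = 2.15e-04). SKP2, which targets the CDK inhibitor p27 for destruction, rose 1.34-fold (edgeR adjusted p = 0.00558), and E2F5, a repressive E2F, fell by 26.2% (edgeR adjusted p = 0.0225). CCND1, the cyclin that acts before cyclin E in G1, had 59.5, 60.3 and 61.2 FPKM in siGSE1 cells, against 116, 97 and 119 in control cells, and fell by 46.3% (edgeR adjusted p = 2.44e-07).

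**Figure D5:**
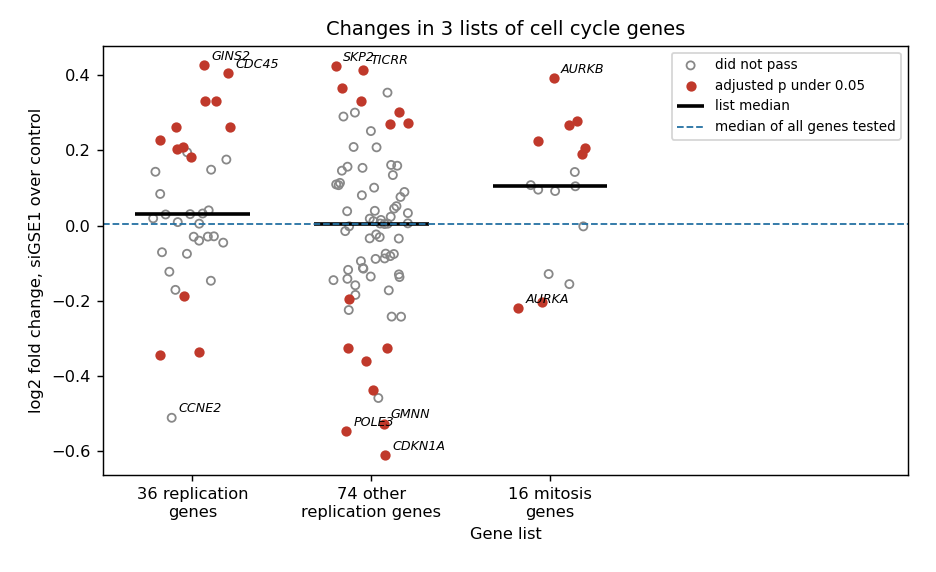
Fitted log2 fold change of siGSE1 over control (vertical) for each gene of 3 lists, filled where the adjusted p was under 0.05, with list medians as black lines and the median of all genes tested as a dashed line. List medians were 0.03 for the 36 replication genes, 0.01 for the 74 others and 0.11 for the 16 mitosis genes.

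Mitosis genes, which follow in the cycle, were mixed too. Of 16, 6 rose, 2 fell and 8 did not pass, 50% called against 19.9% of all genes tested, with a median log2 fold change of 0.11. AURKB, the kinase of the chromosomal passenger complex, rose 1.31-fold, and TOP2A, the topoisomerase that separates sister chromatids, 1.21-fold (edgeR adjusted p = 4.04e-04 and 0.00184). The proliferation marker MKI67 had 32.7, 30.7 and 33.1 FPKM in siGSE1 cells, against 27.6, 26.8 and 27.8 in control cells, and rose 1.15-fold (edgeR adjusted p = 0.00865). FOXM1, CCNB2 and CCNA2 rose as well, while the mitotic cyclin gene CCNB1 fell by 13.1% and the kinase gene AURKA by 14.1% (edgeR adjusted p = 0.0153 and 0.0101). No test set the replication list against this list.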

How the data were processed

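RNA sequencing of A549 cells was analysed from the 1 table the authors deposited, which holds whole-number read counts and FPKM per gene and library. The submitters' processing notes name bcl2fastq, FastQC, cutadapt, HISAT2, StringTie 1.3.3b, HTSeq, edgeR and hg38 with no roles, whereas the series text names STAR, RPKM and DESeq2. Which of these made the table, its annotation release and any use of strand are not stated. The deposited counts carry no normalization. The deposited FPKM values match count over exonic length and library total within 0.0051.

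The members and lists were chosen with earlier results of these data known. Groups followed the sample titles. Counts were tested with edgeR 4.0.16 in R 4.3.3 (filterByExpr with a minimum count of 10 and total of 15, TMM, quasi-likelihood, group as the only term), and p-values were adjusted by Benjamini-Hochberg over 15937 genes with a threshold of 0.05. The SE was derived from the log2 fold change and the F statistic. The biological coefficient of variation was 7.0%. Library deviations used log2 CPM with a prior count of 2. Every member is named, and values in each library are given for members that passed and, per role, for the most abundant that did not. From the other pathway lists, up to 4 called genes with the smallest adjusted p are named, or the most abundant if none passed. Alternatives changed the scaling, filter, tool (DESeq2 1.42.0, limma 3.58.1), threshold, block or libraries. Promoters are from RefSeq and exon overlaps from GENCODE release 29, where GC content was that of the longest transcript.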

Additional observations from a re-analysis of the deposited data

How the results depend on the processing

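All 17 alternatives kept the direction of each of the 13 called members and of GSE1. Calls were less stable, and 9 of the 13 lost theirs in at least 1 setting. A stricter limit (adjusted p at most 0.001 and absolute log2 fold change at least 0.5) left 406 genes, 258 higher and 148 lower, with 0 members called in either direction by edgeR, where 17 members had an unadjusted p under 0.05 and DESeq2 called 8 higher and 2 lower at 0.05, and with 0 other replication genes higher and 3 lower. Over all 30620 genes with a count, DESeq2 called 1392 higher and 1254 lower at 0.05. That total includes genes that the filter on low counts removed, so it is not a like background for the members. TPM scaling gave 929 lower genes, 1 lower member, 14 higher other replication genes and a member median of 0.093, and moved the share of called genes that rose to 73.3%, against 54.6% with TMM. Quantile normalization with limma gave 6 higher members and 5 lower other replication genes, where 7.36% of all genes tested were higher and 6.93% lower. With limma on log2(FPKM + 1), 887 genes, 1 member and 4 other replication genes were lower, and with a pseudocount of 0.1 these were 909, 1 and 4. The shares of all genes tested that were lower were 5.57% and 5.70%. Leaving out 1 library at a time gave 1863 to 3562 called genes, 1049 to 1914 higher and 814 to 1648 lower, with 5 to 10 members higher, 0 to 4 lower and a member median of -0.015 to 0.083, and 4 to 9 other replication genes higher and 5 to 11 lower. In these fits 6.43% to 11.8% of all genes tested were higher and 4.99% to 10.1% lower. The cause of these moves was not tested, and the fits with 1 library left out also held fewer libraries. When trends of GC content and length were taken out, a setting chosen after seeing the data, 8 members rose, 4 fell and the share of called genes that rose was 49.8%. Same-numbered libraries did not deviate together (correlations of -0.02 to 0.02), and with the replicate number as a block 3097 genes were called, 8 members as higher and 2 as lower. With the block, 10.8% of all genes tested were higher and 8.67% lower. The depth limits CCNE2 most, at 46 counts in its lowest library.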
